A study of Mus musculus with 20 samples.

Results

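The genes described here are 9 cathepsins, the proteases of the lysosome, and Cst3, which encodes cystatin C, a secreted inhibitor of cysteine cathepsins. They were chosen by gene symbol (Ctsa, Ctsb, Ctsc, Ctsd, Ctsh, Ctsk, Ctsl, Ctss, Ctsz and Cst3) and make up 10 of the 45777 genes listed in the expression table. RNA was sequenced from the uteri of 20 pregnant wild-type B6D2F1 mice aged 8 to 12 weeks, 5 in each of 4 groups, and all uteri were collected at 18:00 on day 3.5, counting the morning of the vaginal plug as day 0.5. Control mice received no treatment. The IF (implantation failure) mice received a low dose of RU486, a progesterone and glucocorticoid receptor antagonist, under the skin on the morning of day 3.5. The PBMC and PBMC-hCG mice received the same RU486 and, on day 1.5, peripheral blood mononuclear cells of non-pregnant mice placed in the uterus. These cells had been cultured without hCG (human chorionic gonadotropin) for the PBMC group and with it for the PBMC-hCG group. Mice given medium without cells were not analysed here, so in these data the cells cannot be told apart from the injection itself. RNA came from 1 uterine horn per mouse, and markers of the uterus were present in every library: 9 epithelial markers summed to 787 to 1562 TPM, 9 stromal ones to 5579 to 11579.8 TPM and 8 myometrial ones to 5139 to 11604 TPM. In such bulk samples fewer cells of a type and less RNA per cell cannot be told apart.

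Cathepsins are made as inactive precursors, carried to the lysosome largely by mannose 6-phosphate receptors and activated there at acid pH. In the uterus they are known from the luminal and glandular epithelium, from macrophages and from the decidua, and some are secreted and cut extracellular matrix. By their active site, 7 of the 9 (Ctsb, Ctsc, Ctsh, Ctsk, Ctsl, Ctss and Ctsz) are cysteine proteases, Ctsd is an aspartic protease and Ctsa is a serine carboxypeptidase that also protects other lysosomal enzymes.

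All 10 genes were above 0 TPM (a transcript level corrected for transcript length and library size) in all 20 libraries and so passed the filter that left 18706 tested genes. Differences are log2 fold changes on the log2(TPM + 0.1) scale from limma with all 4 groups fitted together. A gene was called when its p-value, adjusted over all tested genes of that comparison, was under 0.05. Library totals lay between 999989 and 999999 TPM, so the read depth cannot be known. Log2 values of mice of the same group correlated with r of 0.961 to 0.992. Control replicate 2 stood apart, with a median correlation of 0.963 to its group against 0.982 to 0.987 for the other control mice. Its 7 uterine gland markers summed to 23931 TPM against 1276 to 7751 in the other controls, and its 4 fat cell markers to 89.2 TPM against at most 3.04, so results that change without it are given both ways. That gland sum was mostly Prss28, Prss29 and Spink1, while Cxcl15, Ttr and Lif were lowest in this mouse among the controls. The comparisons with the IF group share its 5 libraries, and the comparisons with the control group share the 5 control libraries.

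Ctsd and Ctsb carried most of the cathepsin RNA. In control uteri Ctsd was the most abundant at 2180 ± 846 TPM (mean ± SD, n = 5, as for all group values below), followed by Ctsb at 758 ± 61.6 TPM. Cst3 stood at 948 ± 229.6 TPM, above Ctsb in 4 of the 5 control mice. The other 7 cathepsins were lower, in the order Ctsz (228 ± 11.1 TPM), Ctsl (180.0 ± 25.6 TPM), Ctsh (152 ± 24.7 TPM), Ctsa (152 ± 10.2 TPM), Ctss (123 ± 15.1 TPM), Ctsk (71.9 ± 7.98 TPM) and Ctsc (42.3 ± 9.01 TPM). Within this order, Ctsz lay above Ctsl in every control mouse, Ctsl, Ctsh and Ctsa overlapped, and Ctsk and Ctsc were each below all genes before them in every control mouse.

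**Figure D1:**
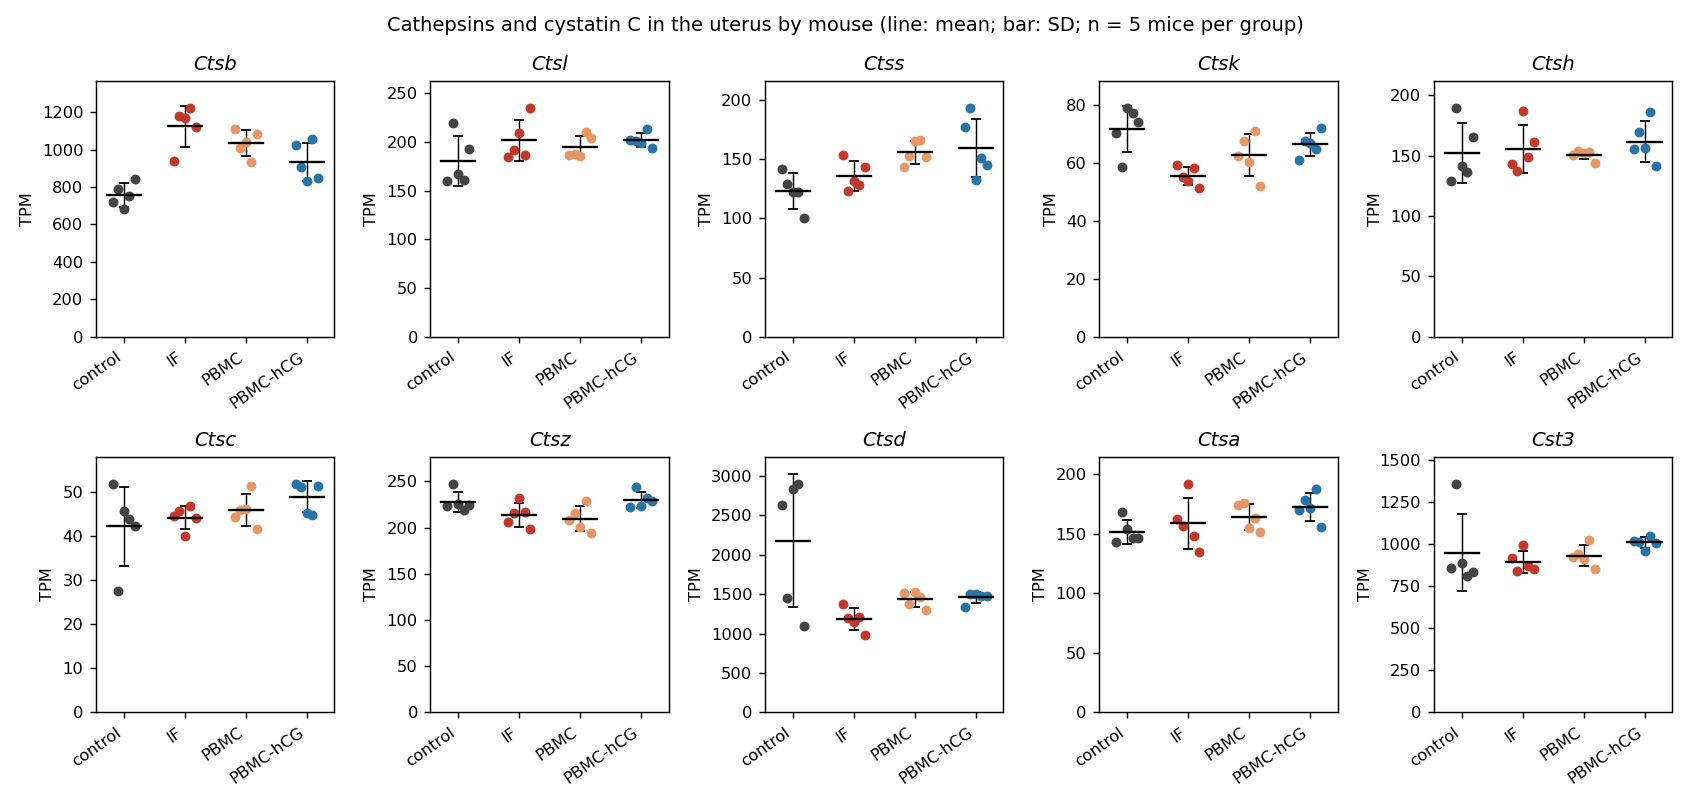
TPM of the 9 cathepsins and Cst3 (vertical axis, from 0, a scale per gene) in the 5 mice of each group (horizontal axis), with the mean as a line and the SD as a bar. Ctsb lies at 685 to 842 TPM in control mice and 940.0 to 1220.5 TPM in IF mice, whereas Ctsd lies at 2634 to 2895 TPM in 3 of the 5 control mice and at no more than 1523 TPM in every RU486-treated mouse.

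The first comparison asked what RU486 changed. In IF against control mice 3 of the 10 genes were called, Ctsb higher and Ctsd and Ctsk lower, where 21.9% of all tested genes were called. The median log2 fold change of the 10 genes was 0.05, and that of all tested genes was 0.02. The changes were small: no member met the second criterion, a fold change of at least 2 with an unadjusted p under 0.05, which 4.03% of tested genes met.

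Cathepsin B (Ctsb, chr14:63122462-63145923, GRCm38) is an abundant lysosomal cysteine protease that acts both as an endopeptidase and as a peptidyl-dipeptidase. It stood at 718, 792, 685, 751 and 842 TPM in the 5 control mice and at 940.0, 1179, 1169.8, 1220.5 and 1121 TPM in the 5 IF mice. Every IF mouse was above every control mouse. The difference was 1.48-fold (log2 fold change 0.57, SE 0.08, adjusted p = 8.14e-05 in limma), and it stayed called in every alternative fit, with log2 fold changes between 0.53 and 0.63 when single mice were left out. Epithelial and endothelial markers were also mostly called higher in this comparison, where 21.9% of all tested genes were called. Of 9 epithelial markers 6 were called higher and 1 lower (median log2 fold change 0.38), and their sum overlapped, at 787 to 1401 TPM in control and 1098 to 1425 TPM in IF mice. Of 7 endothelial markers 6 were called higher and none lower (median 0.42), and their sum ran from 400.4 to 497 TPM in control and from 552 to 638 TPM in IF mice. Other marker lists did not share this. Of 8 myometrial markers none was called higher and 1 lower (median -0.10). Of 15 macrophage and monocyte markers 2 were called higher and none lower (median 0.09). Of 10 dendritic cell and MHC class II markers 1 was called higher and none lower (median 0.07). The part of cell content in the Ctsb difference was not tested.

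Cathepsin D (Ctsd, chr7:142375910-142387827) is the main aspartic protease of lysosomes. In control mice it stood at 2634, 1445, 2832, 2895 and 1093 TPM, and in IF mice at 1377, 1195, 1147, 1204 and 986 TPM. The control mice fell into 3 high and 2 low values, of which 1 (1093 TPM) lay within the range of the IF mice and the other just above it. The difference was 1.72-fold lower in the IF group (log2 fold change -0.79, SE 0.20, adjusted p = 0.00872 in limma). It was no longer called when only these 2 groups were fitted (adjusted p = 0.0756), with the spread taken from the control and IF mice alone. The low control mice, replicates 2 and 5, had gland marker sums of 23931 and 7751 TPM against 1276 to 1582 TPM in the 3 high ones. Among IF mice the lowest Ctsd values, in replicates 3 and 5, likewise stood with the highest gland sums of 12208 and 6223 TPM against 2646 to 2912 TPM. Most of each sum was Prss28, Prss29 and Spink1. By contrast, Foxa2, Cxcl15 and Lif were lower in both low control mice than in the 3 high ones, and Ttr in replicate 2 only. Cxcl15, Ttr and Lif, but not Foxa2, were also lowest in IF replicates 3 and 5. The sums are therefore not a measure of gland content alone, and the part of gland content in the Ctsd difference was not tested. The log2 fold change was -0.91 without control replicate 2 and -1.01 without control replicate 5.

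Cathepsin K (Ctsk, chr3:95499210-95509387) is the collagen-degrading cathepsin best known from osteoclasts. It stood at 70.3, 58.8, 78.9, 77.1 and 74.1 TPM in control mice and at 59.2, 55.1, 53.8, 58.2 and 51.5 TPM in IF mice. Control replicate 2 alone lay within the IF range. The difference was 1.29-fold lower in the IF group (log2 fold change -0.36, SE 0.08, adjusted p = 0.00394 in limma) and -0.43 without control replicate 2. Of 5 osteoclast markers Ocstamp, Dcstamp, Calcr and Oscar were listed at 0 or at most 0.329 TPM in every library. The other, Acp5, a lysosomal phosphatase that macrophages also make, stood at 10.7 to 29.0 TPM and was not called in IF against control mice (log2 fold change -0.10). The 9 stromal markers summed to 5579 to 9480 TPM in control and 9150 to 10877 TPM in IF mice, lowest in control replicate 2. In IF against control mice 3 of them were called higher and 2 lower, where 21.9% of all tested genes were called. In control replicate 2 Col1a1 (665 TPM) and Col3a1 (928 TPM) were the lowest of all libraries, while Dcn, Pdgfrb and Hoxa10 were the highest of the controls. The part of stromal content in the Ctsk difference was not tested.

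**Figure D2:**
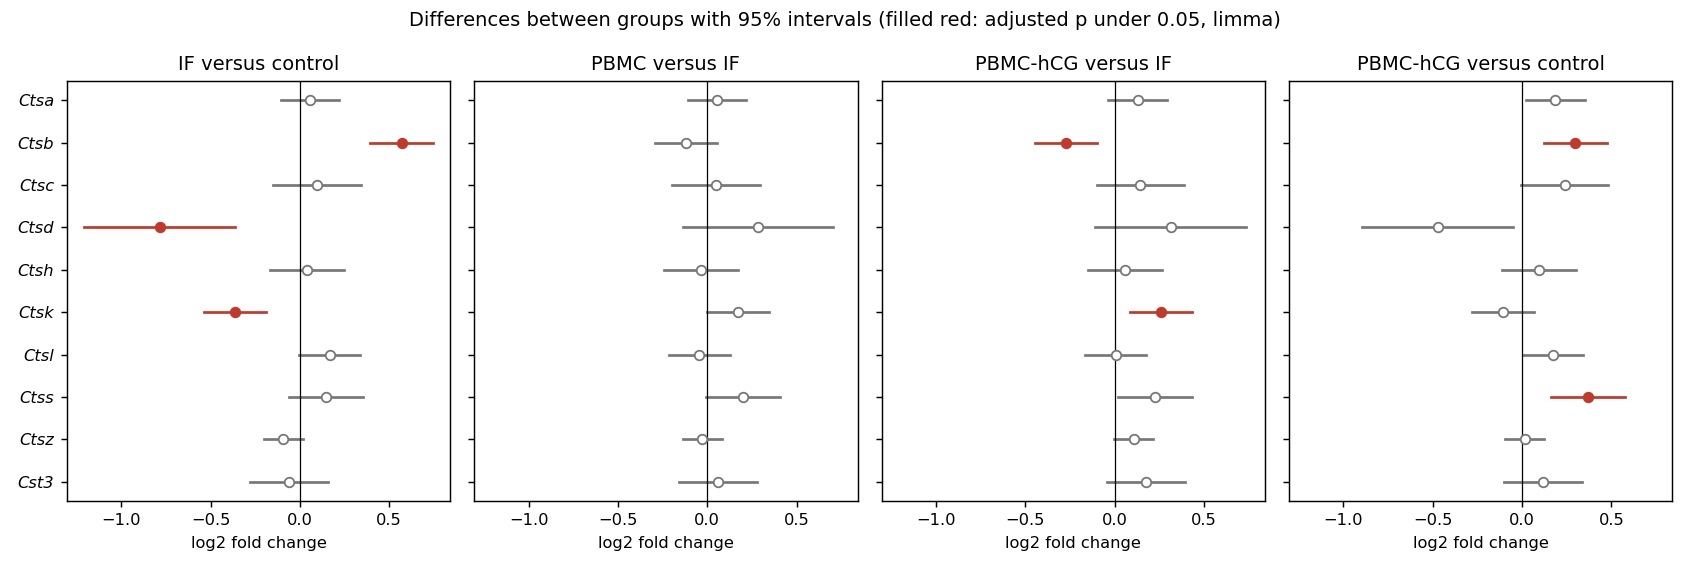
Log2 fold change (horizontal axis) of the 9 cathepsins and Cst3 (vertical axis) in 4 comparisons, with 95% intervals from limma and called genes in filled red. Ctsb lies at 0.57 in IF versus control and at -0.27 in PBMC-hCG versus IF, Ctsk at -0.36 and 0.26, and nothing is called in PBMC versus IF.

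The promoters of 3 of the genes that were called in any comparison are shown, Ctsd for its log2 fold change, the largest of the 10, and Ctsk and Ctss as neighbours on the same strand of chromosome 3 with 17398 bases between them. They are the 250 bases before the gene's start in RefSeq (GRCm38.p6), written 5′ to 3′ on the gene's strand, and 8 of the 10 genes, with 9 promoters in all, had an entry, all but Ctsb and Ctsh. Capitals mark matches on either strand to CACGTG (the E-box bound by TFEB and related factors), ACANNNTGT (the core of the element shared by progesterone and glucocorticoid receptors) and GGGCGG (the GC box, CCGCCC on the other strand).
Ctsd, chr7:142387828-142388077, minus strand: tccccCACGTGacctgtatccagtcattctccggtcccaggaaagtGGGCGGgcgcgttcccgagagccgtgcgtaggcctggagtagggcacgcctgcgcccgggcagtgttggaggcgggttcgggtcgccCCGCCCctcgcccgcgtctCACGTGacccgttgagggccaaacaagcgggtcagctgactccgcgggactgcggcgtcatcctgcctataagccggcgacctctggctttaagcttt
Ctsk, chr3:95498960-95499209, plus strand: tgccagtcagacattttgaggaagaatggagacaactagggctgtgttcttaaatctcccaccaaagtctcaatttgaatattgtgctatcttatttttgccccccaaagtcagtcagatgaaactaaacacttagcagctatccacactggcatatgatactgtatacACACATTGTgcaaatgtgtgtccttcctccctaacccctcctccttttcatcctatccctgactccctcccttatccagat
Ctss, chr3:95526536-95526785, plus strand: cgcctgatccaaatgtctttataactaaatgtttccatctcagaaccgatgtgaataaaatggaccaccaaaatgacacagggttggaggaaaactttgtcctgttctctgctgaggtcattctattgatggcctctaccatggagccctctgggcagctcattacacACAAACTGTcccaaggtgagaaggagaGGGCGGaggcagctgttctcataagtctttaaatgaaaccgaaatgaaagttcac
The Ctsd promoter held 2 E-boxes and 2 GC boxes and none of the receptor elements. The Ctsk promoter held 1 ACANNNTGT match and the Ctss promoter 1, beside 1 GC box. The matches began 81 bases before the Ctsk start and 82 before the Ctss start. Of the 9 promoters 3 held an E-box, 3 an ACANNNTGT match and 5 a GC box, against 6.02%, 5.84% and 32.7% of 32851 mouse promoters of the same length. The longer CLEAR element, which contains the E-box, and the palindromic estrogen response element were in none of the 9 and in 0.240% and 0.0639% of all promoters. A match of letters shows no binding.

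The second comparison asked what the cells changed in RU486-treated mice. PBMC without hCG left all 10 genes uncalled against the IF group, where 0% of tested genes were called in limma, with 1271 of them and none of the 10 at an unadjusted p under 0.05. Ctsb stood at 1108, 1008, 1043, 932 and 1083 TPM, within the IF range in 4 mice and just under its lowest value in 1. Its log2 fold change was -0.12 with a 95% interval of -0.29 to 0.06. The intervals of Ctsk (log2 fold change 0.17, from -0.00432 to 0.34) and Ctss (0.20, from -0.00598 to 0.41) reached just below 0.

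With hCG-treated PBMC, 2 of the 10 genes were called against the IF group, Ctsb lower and Ctsk higher, where 13.6% of all tested genes were called. The median log2 fold change of the 10 genes was 0.14 and that of all tested genes 0.05, and 9 of the 10 values were above 0, Ctsb being the exception. Ctsb stood at 1024, 909, 832, 1056 and 848 TPM, below all IF mice in 3 of 5 mice. The difference was 1.21-fold lower (log2 fold change -0.27, SE 0.08, adjusted p = 0.0423 in limma). Ctsk stood at 61.0, 67.5, 67.0, 64.9 and 72.0 TPM, above every IF mouse. Its difference was 1.20-fold higher (log2 fold change 0.26, SE 0.08, adjusted p = 0.0475 in limma). Of 9 stromal markers 2 were called higher and none lower in this comparison (median log2 fold change 0.22), beside the same 13.6%. Of 8 myometrial markers none was called (median -0.21). The part of tissue content in the Ctsb and Ctsk differences was not tested.

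The calls of Ctsb and Ctsk were both close to the threshold. Leaving out 1 mouse of either group gave between 0 and 5061 called genes, and Ctsb and Ctsk were both uncalled in 7 of those 10 fits, without IF replicate 2, 4 or 5 or PBMC-hCG replicate 2, 3, 4 or 5. The adjusted p then ran to 0.115 for Ctsb and 0.142 for Ctsk, while the log2 fold changes stayed between -0.33 and -0.23 and between 0.23 and 0.29. Ctsb was also uncalled without the filter on low values (adjusted p = 0.0688), with quantile normalization (0.0649) and in a fit of only these groups (0.0660), and Ctsk without the filter (0.0740) and with median-of-ratios scaling (0.0547).

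Ctsd, at 1342, 1503, 1507, 1473 and 1481 TPM in the PBMC-hCG mice, was above all IF mice in 4 of 5 mice. Its log2 fold change of 0.31 (SE 0.20, adjusted p = 0.274 in limma) was not called in the shared fit and was called when only these 2 groups were fitted (adjusted p = 0.0425). No member met the 2-fold criterion, which 2.31% of tested genes met.

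Between the PBMC-hCG and PBMC groups none of the 10 genes was called in limma, where 0.0107% of tested genes were called. Ctsz, a carboxypeptidase also called cathepsin X, was the only 1 of the 10 with an unadjusted p under 0.05, at 230.0 ± 8.68 TPM with hCG and 209.5 ± 13.3 TPM without (log2 fold change 0.14, 95% interval 0.03 to 0.24, adjusted p = 0.283 in limma). For the other 9 the 95% intervals all held 0.

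Set beside the untreated controls, both cell-treated groups had more Ctsb and more Ctss. Against control, 2 of the 10 genes were called in the PBMC group, where 19.5% of all tested genes were called, and 2 in the PBMC-hCG group, where 31.8% were. Ctsb was 1.37-fold higher in the PBMC group (log2 fold change 0.45, SE 0.08, adjusted p = 0.00081 in limma), with no overlap between the groups. In the PBMC-hCG group it was 1.23-fold higher (log2 fold change 0.30, SE 0.08, adjusted p = 0.011), with 1 mouse at 832 TPM below the highest control mouse, and it was uncalled with median-of-ratios scaling (log2 fold change 0.22, adjusted p = 0.0754).

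Cathepsin S (Ctss, chr3:95526786-95556405) cuts the invariant chain of MHC class II in antigen-presenting cells. It stood at 142, 129.5, 122, 123 and 101 TPM in control mice and at 154, 123, 131, 128 and 144 TPM in IF mice. In PBMC mice it stood at 143, 152, 165, 166 and 152 TPM, and in PBMC-hCG mice at 177, 193, 133, 151 and 145 TPM. Every PBMC mouse was above every control mouse, with the closest at 143 and 142 TPM, and PBMC-hCG mice overlapped control mice through 1 mouse at 133 TPM. The log2 fold change against control was 0.34 in the PBMC group (SE 0.10, adjusted p = 0.0185 in limma) and 0.37 in the PBMC-hCG group (SE 0.10, adjusted p = 0.00817). Without control replicate 5, the lowest, the PBMC difference was 0.27 and no longer called (adjusted p = 0.0561). The 15 macrophage and monocyte markers summed to 1503 to 1678 TPM in control, 1578 to 1809 in IF, 1643 to 1804 in PBMC and 1625 to 2122 in PBMC-hCG mice, and their part in the Ctss difference was not tested. Against control, 1 of the 15 was called higher in the PBMC group and 4 in the PBMC-hCG group and none lower, beside 19.5% and 31.8% of all tested genes called in either direction.

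More of the 10 genes were called against the control group when control replicate 2 was left out. Without it, 5 of the 10 genes were called in the PBMC group, with Ctsd, Ctsk and Ctsl in addition, where the share of all tested genes called rose from 19.5% to 24.7%. In the PBMC-hCG group 6 were called, with Ctsa, Ctsd, Ctsl and Cst3 in addition, and that share rose from 31.8% to 40.2%. Ctsl, a cysteine endopeptidase of lysosomes, was then also called in IF against control mice (log2 fold change 0.24, adjusted p = 0.0157 in limma, against 0.17 and 0.153 with all mice), which made 4 of the 10 genes, where 26.8% of all tested genes were called. The log2 fold change of Ctsd against control was -0.50 in the PBMC group (adjusted p = 0.0905 in limma) and -0.47 in the PBMC-hCG group (adjusted p = 0.0807), and it was called in both without control replicate 2 or without control replicate 5.

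Ctsa, Ctsc, Ctsh, Ctsl and Ctsz were not called in any of the 6 comparisons in the limma fit described above with all mice. Under median-of-ratios scaling Ctsz was called lower in PBMC against control mice. The group means of these 5 genes stayed in narrow ranges. Ctsa ran from 152 TPM in control to 173 TPM in PBMC-hCG mice. Ctsc, the dipeptidyl peptidase that activates granule proteases of immune cells, ran from 42.3 to 49.0 TPM, with control replicate 2 lowest at 27.6 TPM. Ctsh, an aminopeptidase, ran from 151 to 161.5 TPM, Ctsl from 180.0 to 202 TPM, and Ctsz from 209.5 to 230.0 TPM. In the 3 comparisons of the IF group the 95% intervals of these 5 genes lay between fold changes of 0.845 (Ctsh, PBMC versus IF) and 1.31 (Ctsc, PBMC-hCG versus IF).

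The balance between the main aspartic and the main cysteine cathepsin differed between the groups. Ctsb exceeded Ctsd in 3 of 5 IF mice and in 0 of 5 mice of each other group. The ratio of Ctsb to Ctsd was 0.418 ± 0.234 in control, 0.968 ± 0.1695 in IF, 0.725 ± 0.0739 in PBMC and 0.642 ± 0.09303 in PBMC-hCG mice. In control mice it ran from 0.242 to 0.7703, so that 1 control mouse, replicate 5, lay within the range of IF mice, which ran from 0.683 to 1.14, and the other 4 lay below it. Ctsd made up 54.2% ± 12.2 of the summed cathepsin TPM in control, 36.1% ± 3.75 in IF, 41.5% ± 1.66 in PBMC and 42.6% ± 2.48 in PBMC-hCG mice. The 7 cysteine cathepsins together ran from 1465 to 1663 TPM in control and from 1731 to 2024 TPM in IF mice, without overlap. Nearly all of this rise was Ctsb: its mean went from 758 to 1126 TPM, and the mean of the sum from 1555 to 1932 TPM. Of the other cysteine cathepsins only Ctsk was called in that comparison, and it was lower.

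**Figure D3:**
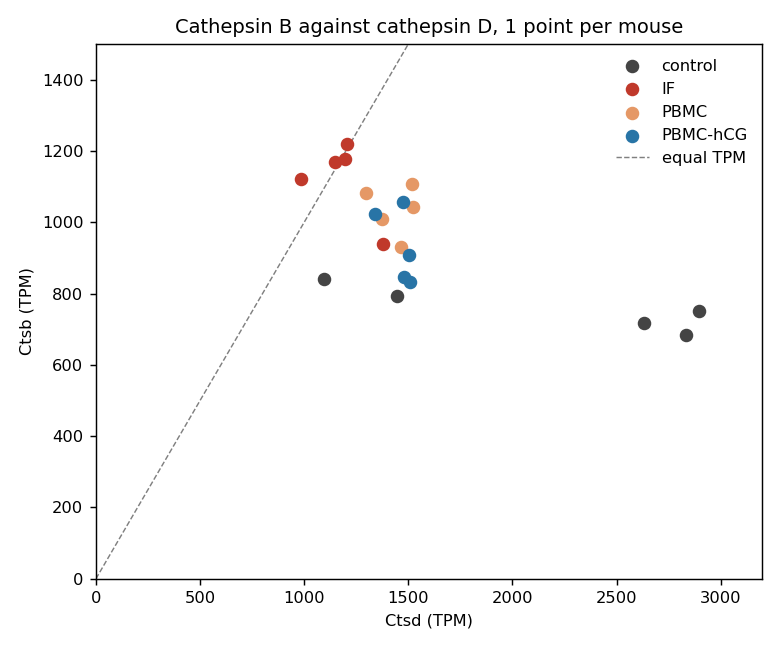
Ctsd (horizontal axis, TPM) against Ctsb (vertical axis, TPM), 1 point per mouse, coloured by group, with the line of equal TPM dashed. The 3 IF mice above the line have more Ctsb than Ctsd RNA, and 3 control mice stand apart at 2634 to 2895 TPM of Ctsd.

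Cst3, the inhibitor, was not called in any comparison in the limma fit described above with all mice. It stood at 858, 1355, 887, 807 and 831 TPM in control mice, of which replicate 2 was far above the others, and at 915, 837, 994, 871 and 849 TPM in IF mice. In PBMC mice it stood at 924, 941, 909, 1023 and 852 TPM and in PBMC-hCG mice at 1017, 1010.2, 959.7, 1049 and 1007 TPM. Without control replicate 2 the PBMC-hCG mice lay above all control mice, with a log2 fold change of 0.25 (adjusted p = 0.00214 in limma), against 0.12 (adjusted p = 0.414) with all mice. The ratio of Cst3 to the summed cysteine cathepsins was 0.607 ± 0.122 in control, 0.464 ± 0.0442 in IF, 0.502 ± 0.0408 in PBMC and 0.561 ± 0.0275 in PBMC-hCG mice. Ctsb was the largest part of that sum in every group, so the ratio also follows Ctsb.

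Among the other inhibitors of cysteine cathepsins, Ctla2a changed far more than any of the 10 genes. It encodes a protein that resembles the propeptide of cathepsin L and inhibits it. It stood at 3944, 7712, 4115, 4659 and 5039 TPM in control mice and at 1316, 907, 1183, 1236 and 1459 TPM in IF mice. The IF mice were all below the control mice (log2 fold change -2.03, SE 0.17, adjusted p = 2.28e-07 in limma), while the PBMC (1189 ± 125 TPM) and PBMC-hCG (1229 ± 248 TPM) groups differed from the IF group (1220.2 ± 204 TPM) by log2 fold changes of -0.03 and 0.0026. The ratio of Ctla2a to Ctsl was 27.9 ± 4.43 in control mice and 6.07 ± 0.926, 6.11 ± 0.549 and 6.08 ± 1.14 in IF, PBMC and PBMC-hCG mice. Of 23 genes listed as such inhibitors or relatives of them, 22 were in the table, 12 were at 0 in every library and 7 were tested. Only Ctla2a was called between the IF and control groups, where 21.9% of all tested genes were called. Cstb, or stefin B, an inhibitor inside the cell, was called lower in the PBMC-hCG than in the IF group (170.3 ± 11.6 against 212 ± 28.5 TPM, log2 fold change -0.31, adjusted p = 0.0325 in limma).

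**Figure D4:**
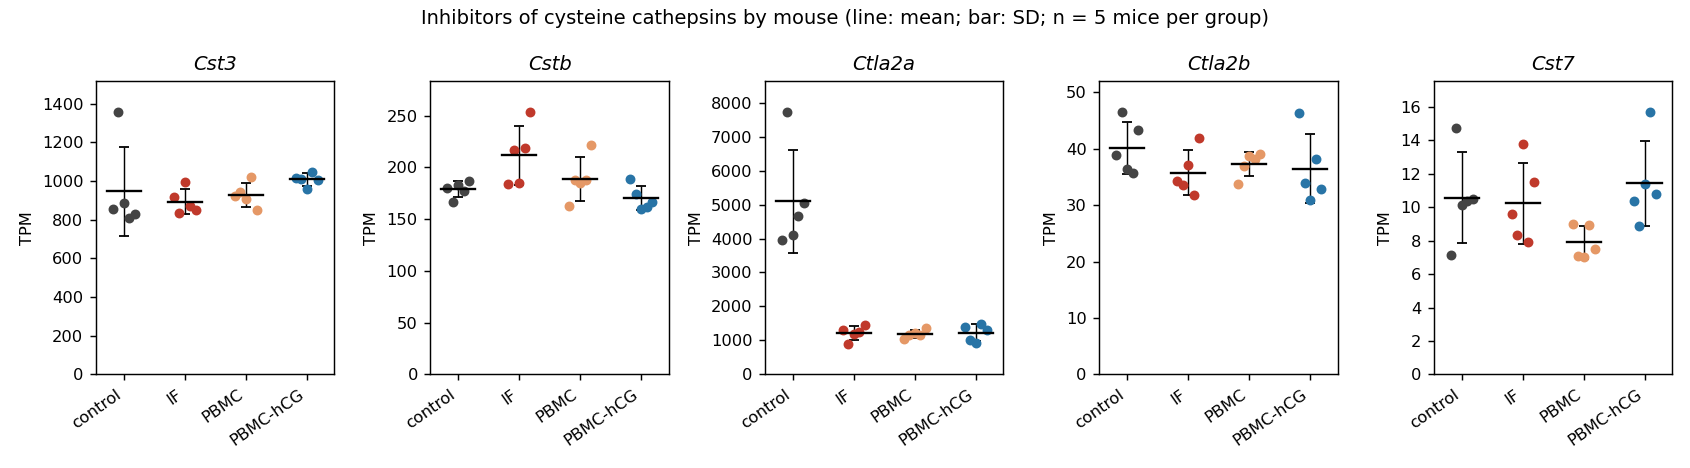
TPM (vertical axis, from 0) of 5 inhibitors of cysteine cathepsins in the 5 mice of each group (horizontal axis), with the mean as a line and the SD as a bar. Ctla2a lies between 3944 and 7712 TPM in control mice and between 907 and 1486 TPM in all 15 RU486-treated mice, while the other 4 overlap between groups.

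Of 16 further cathepsins and related proteases, 8 were at 0 in every library and 6 were tested. Legumain (Lgmn), the asparaginyl endopeptidase that processes cathepsins to their mature cleaved forms, was higher in the IF (349 ± 54.0 TPM) than in the control group (245 ± 47.7 TPM; log2 fold change 0.52, adjusted p = 0.00514 in limma). Control replicate 2 was lowest at 160.0 TPM and 1 IF mouse at 269 TPM lay within the control range, and the gene was uncalled in a fit of only these groups (adjusted p = 0.0578). Ctso, a little-studied cysteine cathepsin, was higher in the PBMC-hCG (32.2 ± 2.87 TPM) than in the IF group (23.4 ± 3.42 TPM; log2 fold change 0.47, adjusted p = 0.0287 in limma), without overlap. Neither gene was called in the other of these comparisons. Like Ctsb and Ctsk, each gene of these lysosomal lists named here for a call in PBMC-hCG against IF mice was uncalled in 7 or 8 of the 10 fits that left out 1 mouse.

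Of 12 genes of the sorting machinery that brings cathepsins to the lysosome, 3 were higher and 2 lower in IF against control mice and 7 were not called, where 21.9% of all tested genes were called. Igf2r, the large mannose 6-phosphate receptor, rose from 36.7 to 49.5 TPM (log2 fold change 0.42, adjusted p = 0.00426 in limma). Scarb2, the receptor of glucocerebrosidase, rose from 61.8 to 86.2 TPM, and Lrp1, an endocytic receptor, from 62.2 to 83.9 TPM. Gga2, an adaptor of the receptors, fell from 31.1 to 21.4 TPM, and Gnptab, a subunit of the enzyme that makes the mannose 6-phosphate tag, from 14.0 to 11.1 TPM. In the PBMC-hCG group 2 of 12 were higher than in the IF group and none lower, where 13.6% of all tested genes were called, namely Sort1 (27.5 against 20.3 TPM), a sorting receptor, and Gga2 (25.5 against 21.4 TPM).

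The other lysosomal hydrolases and their cofactors were mostly uncalled in IF against control mice. Of 35 tested, 1 was higher (Galc) and 3 were lower (Gusb, Naglu and Sgsh), where 21.9% of all tested genes were called. Gusb, or beta-glucuronidase, fell from 74.3 ± 9.40 to 49.3 ± 2.92 TPM (log2 fold change -0.58, adjusted p = 2.31e-05 in limma). The count of lower genes was 8 under median-of-ratios scaling and 7 under quantile normalization. Over all tested genes the lower ones went from 1595 to 2083 and 2093 under these scalings. Between the PBMC-hCG and IF groups 7 of the 35 were called higher and none lower, where 13.6% of all tested genes were called. The median log2 fold change of the 35 was 0.25, where that of all tested genes was 0.05, and 33 of the 35 values were above 0. Grn, which encodes progranulin, a secreted cofactor of lysosomal enzymes, was among those 7 (563 ± 47.3 against 421 ± 46.7 TPM, log2 fold change 0.42, adjusted p = 0.0258 in limma). The count of higher genes was 8 under median-of-ratios scaling and 10 under quantile normalization, and it ran from 0 to 21 when single mice were left out. Over all tested genes the higher ones numbered 1423, against 1181 and 1457 under these scalings and 0 to 3031 when single mice were left out.

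Membrane proteins of the lysosome had 2 of 15 genes higher and none lower in IF against control mice, Lamp2 and Laptm5, and 3 higher and none lower in PBMC-hCG against IF mice. The shares of all tested genes called were 21.9% and 13.6%. The largest of the 3 was Npc1, the cholesterol transporter, at 54.4 ± 5.40 against 34.7 ± 7.25 TPM (log2 fold change 0.67, adjusted p = 0.0258 in limma). The proton pump that acidifies the lysosome had 3 of 22 subunit genes higher and 1 lower in IF against control mice, and 2 higher and 1 lower in PBMC-hCG against IF mice, beside the same shares of 21.9% and 13.6%. The pump subunit gene Atp6v0c was higher in IF than in control mice (271 against 226.5 TPM) and lower in PBMC-hCG (227.5 TPM) than in IF mice.

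Of 10 regulators of lysosomal transcription, 3 were higher and 2 lower in IF against control mice, where 21.9% of all tested genes were called. Mitf, a transcription factor of the family that binds the E-box of lysosomal genes, stood at 7.26, 20.9, 7.01, 7.05 and 8.47 TPM in control mice and at 23.1, 30.1, 34.5, 23.0 and 25.6 TPM in IF mice (log2 fold change 1.55, adjusted p = 5.42e-05 in limma). All IF mice were above all control mice. Tfe3, of the same family, rose from 33.3 to 45.1 TPM (log2 fold change 0.43, adjusted p = 0.00021). Zkscan3 was the other gene called higher in IF against control mice, and Rragd, a GTPase that recruits these factors to the lysosome, was among the lower. In PBMC-hCG against IF mice Rragd was called higher and its relative Rraga lower, where 13.6% of all tested genes were called.

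**Figure D5:**
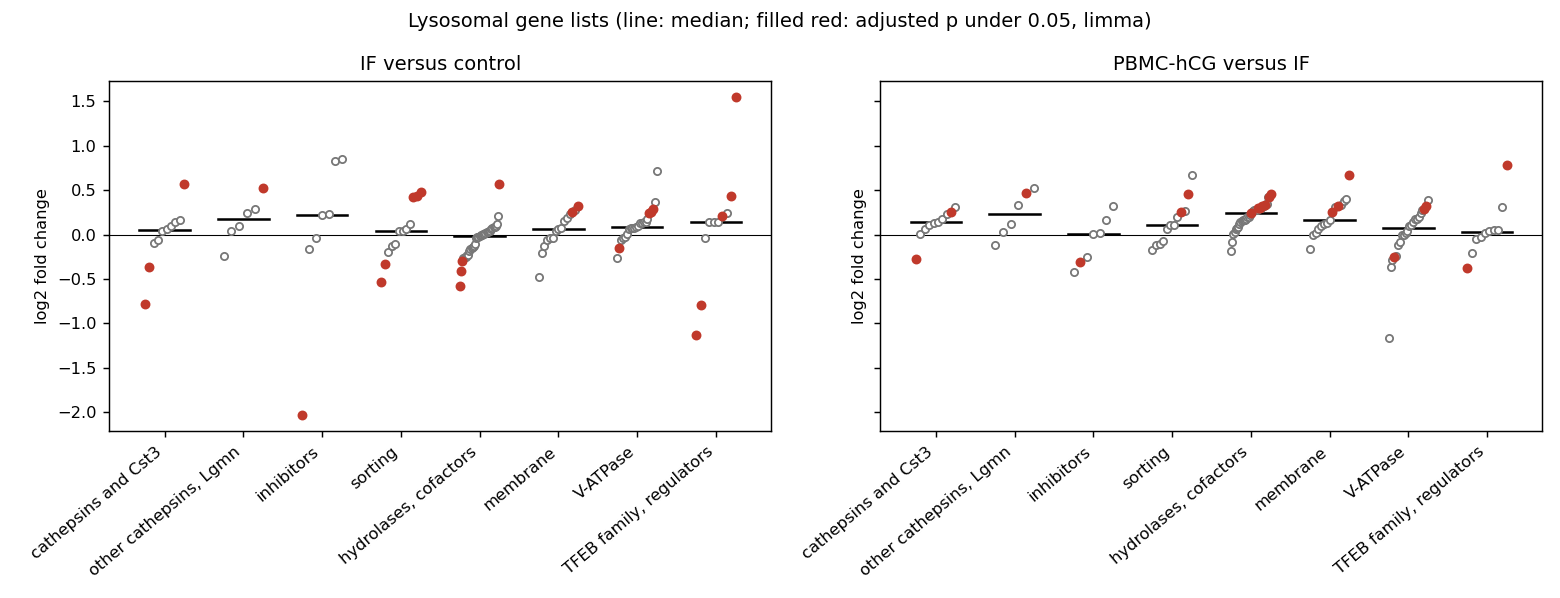
Log2 fold change (vertical axis) of each tested gene of 8 lists (horizontal axis) in IF against control mice (left) and PBMC-hCG against IF mice (right), with the median of each list as a line and called genes in filled red. The cathepsins have 3 and 2 called genes, and the hydrolases have 4 called genes on the left, 3 of them below 0, and 7 on the right, all above 0. Of all tested genes 21.9% were called on the left and 13.6% on the right.

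For each of the 10 genes the genes with the most similar levels over the 20 mice were looked up among 12491 genes with a mean of at least 5 TPM, as a description only, since all genes share the libraries and the 4 groups. Ctsb was most like Padi1 (Pearson r = 0.952), Ctsd like Rnf128 (r = 0.951) and Ctsk like Pgm2 (r = 0.946). Ctss was most like C1qc (r = 0.881), a complement gene of macrophages, and then like Igsf6 (r = 0.868). With the group means taken out, Igsf6 (r = 0.790) and C1qc (r = 0.756) were again the 2 most similar to Ctss, and Pgm2 (r = 0.886) the most similar to Ctsk, whereas Ctsb was then most like Gmds (r = 0.888) and Ctsd like Glul (r = 0.942). Cst3 was most like Ldhb (r = 0.945) and H2-D1 (r = 0.942), and likewise without the group means (r = 0.951 and 0.9497).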

How the data were processed

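Uterine RNA of 20 mice (5 per group) was measured by RNA-seq. The labels gave each mouse's group and replicate number. The authors prepared stranded mRNA libraries, trimmed reads with Trimmomatic, mapped to mm10 with HISAT2 and assembled with StringTie. The deposited values are TPM per gene. TPM keeps no read depth, so no counting interval could be given. The authors' edgeR test on TMM-normalized counts could not be repeated.

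With limma 3.58.1 in R 4.3.3, log2(TPM + 0.1) of the 18706 genes that exceeded 0 TPM in every library was fitted (variance trend, 4 groups in 1 fit). Benjamini-Hochberg adjustment covered all tested genes of each of 6 comparisons. With nothing stated on litters or days, p-values measure the spread between these mice. The method was tested on simulated data. The 10 genes, the 7 lists of lysosomal genes (136 genes) and the 14 lists of cell type markers were chosen with earlier results of these data known. From each lysosomal list at most the 3 largest rises and the 3 largest falls per comparison were to be named, among called genes with a mean of at least 1 TPM. Alternatives were pseudocounts of 0.01 and 1, no filter, a mean of at least 1 TPM, quantile normalization, median-of-ratios scaling, fits of only the groups compared, a replicate block, and each mouse left out. Promoters and positions are from RefSeq (GRCm38.p6). Values were summarized with pandas 2.3.3 and drawn with matplotlib 3.10.9 in Python 3.11.15.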

Additional observations from a re-analysis of the deposited data

Results flagged for a closer look

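In 3 of the 40 groups of 5 mice tested for the 10 genes, 1 mouse lay apart from the other 4 by Dixon's criterion, which chance alone meets in about 1 of 20 groups. Ctsd was low in PBMC-hCG replicate 1 at 1342 TPM, where the others lay between 1473 and 1507 TPM. Control replicate 2 was high for Ctsz at 247 TPM (others 219 to 225 TPM) and for Cst3 at 1355 TPM (others 807 to 887 TPM). The same mouse had a gland marker sum of 23931 TPM, mostly of Prss28, Prss29 and Spink1, and the part of tissue content in these values was not tested.

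Among the called genes that the naming rule took from the lysosomal lists, control replicate 2 lay apart for Lgmn (160.0 TPM, low), Gga2 (26.5 TPM, low), Ctso (33.6 TPM, high), Galc (17.6 TPM, high), Npc2 (176 TPM, high) and Mitf (20.9 TPM, high). Control replicate 5 was low for Atp6ap2 at 48.8 TPM. The other mice that lay apart were PBMC replicate 1 for Lgmn (316 TPM, low), PBMC replicate 5 for Sort1 (16.9 TPM, low), IF replicate 3 for Naglu (31.3 TPM, high) and IF replicate 4 for Atp6v0d1 (153 TPM, high). Over these genes and the 10 together, 14 of 172 groups were of this kind.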

How the results depend on the processing

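Against control, Ctsb stayed called higher and Ctsk lower in IF mice under every alternative run, and Ctsd lower in all but the fit of only those groups. The number of the 10 genes called in PBMC-hCG versus IF was 2, and it was 0 without the filter on low values, 1 with median-of-ratios scaling, 0 with the replicate block and 0 to 3 when single mice were left out. In PBMC versus control it was 2, against 5 with median-of-ratios scaling (Ctsd, Ctsk and Ctsz lower in addition) and 2 to 5 when single mice were left out. In PBMC-hCG versus control it was 2 and ran from 2 to 6 when single mice were left out, with 3 in the fit of only those groups. In IF versus control it was 3, against 2 in the fit of only those groups and 3 to 4 when single mice were left out. In PBMC versus IF and PBMC-hCG versus PBMC it was 0 throughout. The cause of these shifts was not tested. Over all genes, PBMC-hCG versus IF had 2544 called genes and 812 without the filter, which tests 30695 genes. It had 2648 with median-of-ratios scaling, 3215 with the replicate block and 0 to 5061 when single mice were left out. PBMC versus control had 3653, against 3532 with median-of-ratios scaling and 2959 to 4628 with single mice left out. PBMC-hCG versus control had 5941, against 5479 in the fit of only those groups and 4756 to 7513 with single mice left out. For IF versus control these were 4104, 2473 and 3323 to 5012.

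Replicate numbers were not taken to pair mice, since same-numbered mice did not steadily deviate together. In PBMC-hCG versus IF their r ran from -0.207 to 0.0571, and 0 of 5 correlated best with their own number. In IF versus control r ran from -0.247 to 0.396, with 3 of 5 pairs over 0.1 and 1 of 5 best with its own number. Over the 6 comparisons r reached 0.457 (PBMC versus IF). At most 2 of 5 mice correlated best with their own number (PBMC versus control). With the replicate block the adjusted p was 0.0521 for Ctsb and 0.0531 for Ctsk in PBMC-hCG versus IF.

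Values that changed sign were all uncalled, with log2 fold changes of at most 0.135 in size (Cst3 in PBMC versus control, with 1 mouse left out). These were log2 fold changes of -0.0138 (quantile) and -0.0480 (median-of-ratios) for Ctsh in PBMC versus control, 0.00753 (quantile) for Ctsz in PBMC versus IF, and, with median-of-ratios scaling, -0.0397 for Ctsl in PBMC-hCG versus IF, -0.00199 for Ctss in PBMC-hCG versus PBMC and -0.0615 for Ctsz in PBMC-hCG versus control. When single mice were left out, IF versus control spanned 0 for Cst3 (-0.110 to 0.0770), Ctsa (-0.0123 to 0.115), Ctsc (-0.0518 to 0.176) and Ctsh (-0.0311 to 0.1201). PBMC versus IF did so for Ctsa (-0.00103 to 0.126), Ctsh (-0.0785 to 0.0331), Ctsl (-0.0749 to 0.0109) and Ctsz (-0.0607 to 0.00215). PBMC versus control did so for Cst3 (-0.0516 to 0.135), Ctsc (-0.00209 to 0.225) and Ctsh (-0.0535 to 0.0841). The comparisons of PBMC-hCG did so for Ctsl against IF (-0.0235 to 0.0622), Ctsd (-0.00732 to 0.0592) and Ctss (-0.0461 to 0.0884) against PBMC, and Ctsz against control (-0.00605 to 0.0453).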
